A study of Mus musculus with 6 samples.

Results

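The genes described here are 10 genes that mark platelets and megakaryocytes, the large bone marrow and lung cells that shed platelets. They are Gp1ba, Gp1bb, Gp9 and Gp5, which encode the subunits of the GPIb-IX-V receptor, Itga2b and Itgb3, which encode the fibrinogen receptor integrin αIIbβ3, the collagen receptor gene Gp6, the granule receptor gene Treml1, and the granule chemokine genes Pf4 and Ppbp. They were chosen by name, and all 10 were found among the 22815 mouse genes that the arrays measured. Each gene was read from the probe with the highest mean signal over the 6 arrays.

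The arrays measured lung RNA of male C57BL6 mice aged 10 weeks that had been starved for 16 h and given LPS (20 mg/kg), the endotoxin of Gram-negative bacteria, into the peritoneum. The 3 mice of the saline group then received saline and the 3 mice of the rhTM group recombinant human thrombomodulin (rhTM), at 3 h and 24 h after LPS in each case, and lungs were taken at 30 h. Each mouse had its own 1-colour Agilent array, on which the brightness of a spot reports the amount of a transcript. All 6 mice carried LPS, so the comparison is of rhTM with saline in endotoxaemia, and no array of an untreated lung was analysed here.

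Platelets have no nucleus and carry RNA that megakaryocytes packed into them. In whole lung most of these genes are therefore read from platelets held in its vessels and from megakaryocytes that reside there. Some, Itgb3 among them, are also made by other cells of the lung, and the share that came from platelets was not tested. GPIb-IX-V catches von Willebrand factor on an injured vessel wall, GPVI responds to collagen, and integrin αIIbβ3 then binds fibrinogen and joins platelets to each other. Activated platelets release CXCL4 (Pf4) and CXCL7 precursors (Ppbp) from their α-granules. Thrombomodulin is an endothelial receptor that binds thrombin and turns it towards the activation of protein C. The comparison asks whether the lung content of platelet transcripts differed when rhTM was given during endotoxaemia. In RNA of a whole lung, fewer platelets and less RNA per platelet cannot be told apart.

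Promoters of platelet genes are known for words bound by GATA1 and by ETS factors such as FLI1. RefSeq promoter windows of assembly GRCm38.p6 were at hand for 9 of the 10 genes. The 250 bases before each start were searched on both strands for the GATA word AGATAA, its variant AGATAG, the related word TGATAA, its variant TGATAG, and for the ETS word AGGAAG with its variant CGGAAG. Words of the GATA kind stood in 4 of the 9 windows and in 26.5% of 32851 mouse windows of that length. Words of the ETS kind stood in 6 of the 9 windows and in 39.2% of all windows, and words of both kinds stood in 3 of the 9 and in 9.21% of all. No 2 of the matched words overlapped. Windows are shown for Itga2b, Treml1 and Ppbp, whose levels moved together over the mice, for Pf4, whose level followed the others less closely, and for Gp5, whose window held words of both kinds. Capitals mark the words, on either strand, and no word was found in the windows of Treml1 and Ppbp. A word is a match of letters, not a measured binding site.
Itga2b, chr11:102469884-102470133, minus strand: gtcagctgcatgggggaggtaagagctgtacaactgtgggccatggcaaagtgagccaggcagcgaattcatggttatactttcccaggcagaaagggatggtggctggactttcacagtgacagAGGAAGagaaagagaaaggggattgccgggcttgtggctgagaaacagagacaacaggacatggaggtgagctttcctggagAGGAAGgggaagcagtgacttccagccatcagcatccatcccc
Treml1, chr17:48359666-48359915, plus strand: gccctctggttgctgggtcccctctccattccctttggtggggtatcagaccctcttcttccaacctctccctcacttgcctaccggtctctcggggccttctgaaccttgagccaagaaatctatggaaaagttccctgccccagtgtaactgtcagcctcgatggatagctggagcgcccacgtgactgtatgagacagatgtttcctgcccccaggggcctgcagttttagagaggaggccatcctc
Ppbp, chr5:90768268-90768517, plus strand: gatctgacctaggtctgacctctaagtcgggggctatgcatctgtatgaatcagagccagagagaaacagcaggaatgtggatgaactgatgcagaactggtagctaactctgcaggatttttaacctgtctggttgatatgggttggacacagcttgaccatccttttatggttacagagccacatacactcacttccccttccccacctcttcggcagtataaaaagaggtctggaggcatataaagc
Pf4, chr5:90772185-90772434, plus strand: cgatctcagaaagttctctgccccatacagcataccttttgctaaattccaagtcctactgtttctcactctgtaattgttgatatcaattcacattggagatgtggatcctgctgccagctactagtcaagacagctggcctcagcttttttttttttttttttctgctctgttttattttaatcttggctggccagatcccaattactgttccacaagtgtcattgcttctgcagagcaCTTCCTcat
Gp5, chr16:30310782-30311031, minus strand: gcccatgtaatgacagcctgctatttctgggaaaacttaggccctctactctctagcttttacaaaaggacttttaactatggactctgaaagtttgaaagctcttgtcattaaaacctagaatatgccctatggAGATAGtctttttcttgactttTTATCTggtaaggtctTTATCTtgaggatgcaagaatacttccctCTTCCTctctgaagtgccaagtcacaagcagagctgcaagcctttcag
The 2 ETS words of Itga2b lay at bases -125 to -120 and -43 to -38 from its start, and that of Pf4 at -9 to -4. The Gp5 window held 3 GATA words, at -115 to -110, -93 to -88 and -77 to -72, and 1 ETS word at -48 to -43. Ppbp and Pf4 are neighbours on chromosome 5 and read in the same direction.

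Before the results, a fault in the deposit has to be stated. The authors also deposited a table of processed values, in which the values under saline replicate 1 were those scanned for rhTM replicate 2 and the reverse, with a match within 0.1% at 99.9% of probes in both. Which assignment is right is not settled by the sources used here, so values below follow the scanner output, and the fold change from the table is given beside that of each gene tested. Array and mouse numbers are those of the scanner output. The arrays lay on 2 slides, and by the scanner output slide 2 held saline 1 and rhTM 3. Spike-ins of saline 1 had a slope of 0.826, against 1.07 to 1.09 on the other arrays. The 75th percentile of the signal was 675 to 850 and 36002 to 40502 probes were well above background. Values are log2 signals minus the 75th percentile of the array, called log2 levels below, and they can be compared between mice for a gene but not between genes. All 8 lung epithelium markers examined, Sftpc and Scgb1a1 among them, were above background on every array of the lungs.

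The platelet genes differed widely from mouse to mouse, and the treatment groups overlapped for each of the 10. Of the 10, 8 were well above background on all 6 arrays, and the lowest values of Gp1ba and Gp5 were not. Among those 8 the highest array was 1.34-fold above the lowest for Gp1bb and 3.34-fold for Itga2b. The median of the 8 was 2.64-fold, whereas the median over the 15765 genes above background on every array was 1.44-fold. For 6 of the 8 the highest and lowest mouse lay more than 1 log2 unit apart, as they did for 15.7% of those genes. These ranges are the same under either assignment of the arrays. Gp1bb and Itgb3, with ranges of 1.34-fold and 1.51-fold, were the exceptions.

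After Benjamini-Hochberg adjustment over 16362 genes, limma called 0 of the 9 genes that could be tested, as it called 0% of all genes, and the lowest adjusted p of any gene was 0.9999. An unadjusted limma p below 0.05 was reached by 0 of the 9, against 1.86% of all tested genes. That count depended on the arrays used. It was 2 of 9 without rhTM 1 (Itga2b and Gp6, both lower), against 1.72% of all genes. By the table it was 1 of 9 (Itgb3), against 14% of all tested genes. Groups did not overlap for 0 of the 10, against 5.59% of all 22815 genes. The mean log2 level was higher with rhTM for 4 genes and lower for 6, with a median log2 fold change of -0.12, against 0.02 over all genes. The 6 include Gp1ba and Gp5, above background in 1 and 0 of the 3 rhTM lungs, so their differences are not measured folds. Over the 9 tested genes, Gp1ba among them, 4 were higher and 5 lower, with a median of -0.11, against 0.0026 over all tested genes. The exact two-sided permutation test cannot fall below 0.1 with 3 mice against 3, and its p was between 0.3 and 1 for the 10 genes.

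**Figure D1:**
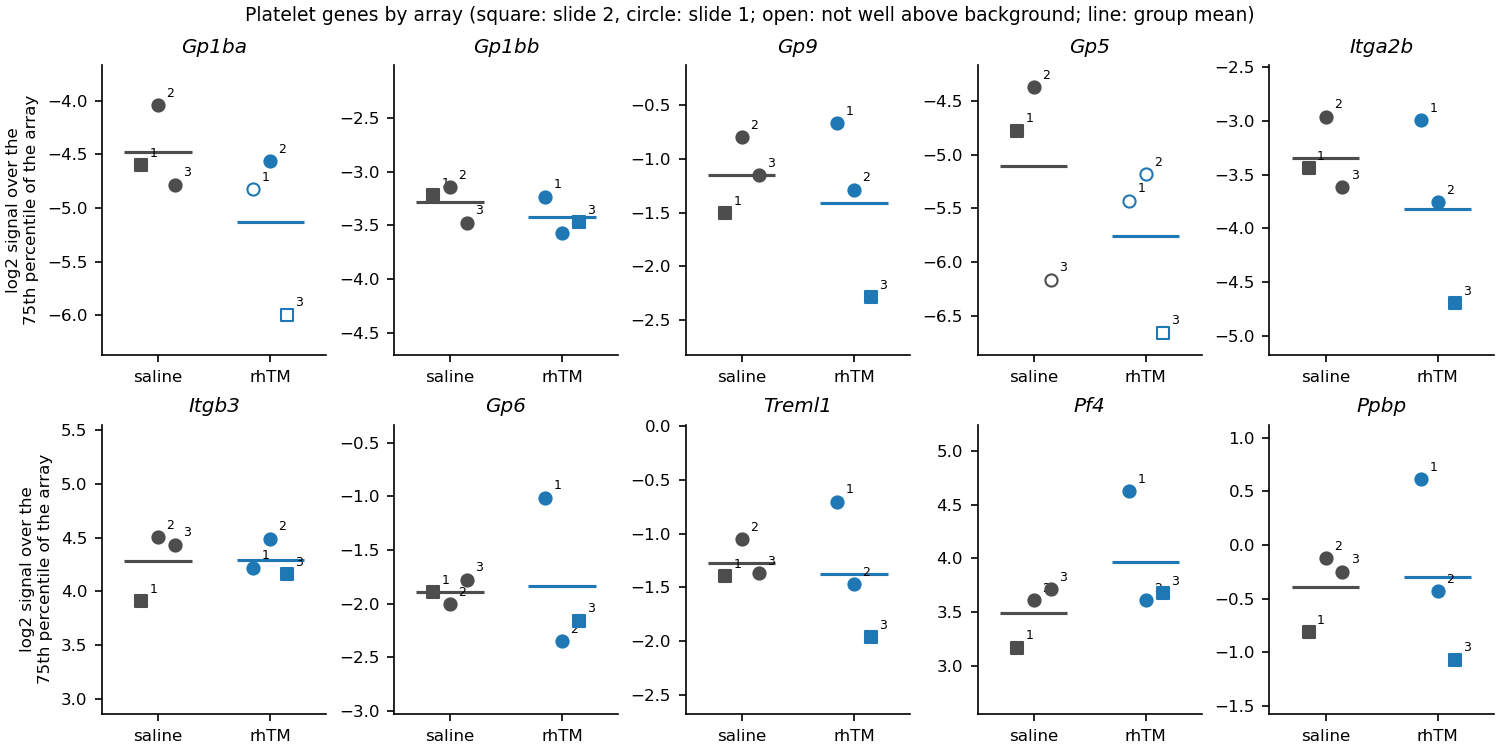
Log2 level of each platelet gene (vertical axis, log2 signal over the 75th percentile of the array) in the 3 saline and 3 rhTM lungs, numbered by replicate. Squares are the 2 arrays of slide 2, circles those of slide 1, open symbols are not well above background, and lines are group means. The groups overlap in every panel, and rhTM 1 or saline 2 is the highest array of each gene.

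Of the GPIb-IX-V genes, Gp9 was among those that varied most in step with the rest. The level of Gp9, the GPIX subunit that the receptor needs to reach the surface, was -1.50, -0.80 and -1.15 in saline 1, 2 and 3 and -0.67, -1.29 and -2.28 in rhTM 1, 2 and 3. The highest and the lowest lung were both of the rhTM group. The log2 fold change of rhTM over saline was -0.26 (SE 0.41, 95% interval -1.23 to 0.71), within the spread of the mice (exact permutation p = 0.7), and the table gave -0.41 (SE 0.39).

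Gp1ba encodes GPIbα, the subunit that binds von Willebrand factor and thrombin. Its level was -4.60, -4.05 and -4.78 in the saline lungs and -4.83, -4.56 and -6.00 in the rhTM lungs. It was well above background in all 3 saline lungs but only in rhTM 2 of the treated group, so it entered the test through the saline arrays. A log2 fold change of -0.65 (SE 0.39, 95% interval -1.59 to 0.28) resulted, which did not pass (exact permutation p = 0.3), and the table gave -0.68 (SE 0.39). The low values of rhTM 1 and rhTM 3 are not measured levels, so the size of the difference is uncertain.

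Gp1bb encodes GPIbβ, which links GPIbα to the rest of the complex. Its level was -3.22, -3.15 and -3.47 in the saline lungs and -3.23, -3.57 and -3.47 in the rhTM lungs, the narrowest range of the 10 genes. The difference was small, with a log2 fold change of -0.14 (SE 0.15, 95% interval -0.50 to 0.21), and of the opposite sign by the table, at 0.091 (SE 0.15). A dimmer second probe for Gp1bb read -5.58, -4.79 and -4.89 with saline and was not well above background in any rhTM lung. With the lowest signal of any probe well above background as the limit in the rhTM lungs, saline was 1.10-fold higher on this probe. That limit is not particular to this probe and carries no error, so the value is not a measured fold. By the table the second probe was above background in 2 saline lungs and 1 rhTM lung.

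Gp5 encodes GPV, a subunit that thrombin cuts. It was well above background in saline 1 and saline 2 only, and was therefore not tested. Its level was -4.78, -4.37 and -6.17 with saline and -5.43, -5.18 and -6.66 with rhTM. With 4 of the 6 values not above background, no fold is given. In the table's assignment 1 lung of each group was above background.

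Of the integrin pair, the gene of the α subunit varied more between mice than that of the β subunit, with ranges of 3.34-fold and 1.51-fold. Itga2b encodes integrin αIIb, which is found on cells of the megakaryocyte line. Its level was -3.44, -2.96 and -3.62 in the saline lungs and -2.99, -3.76 and -4.70 in the rhTM lungs. The treated group held both the second highest and the lowest lung. Between the groups the log2 fold change was -0.48 (SE 0.42, 95% interval -1.48 to 0.53, exact permutation p = 0.4), and from the table it was -0.26 (SE 0.45).

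Itgb3 encodes integrin β3, which endothelial cells and macrophages also make as the partner of αV. Its level was 3.91, 4.50 and 4.43 with saline and 4.22, 4.49 and 4.16 with rhTM, so saline 1 was the lowest lung. Group means were equal to within a log2 fold change of 0.01 (SE 0.19, 95% interval -0.46 to 0.47). The exchange of arrays bears on this gene more than on the others. By the table all 3 saline lungs stood above all 3 rhTM lungs, with a log2 fold change of -0.38 (SE 0.12) that did not pass (exact permutation p = 0.1, adjusted limma p = 0.313). Groups did not overlap for 18.8% of all genes by the table, and 14% of the tested genes had an unadjusted p under 0.05. Without both exchanged arrays the value was -0.28 (SE 0.16), and the remaining 2 lungs of each group did not overlap, as was so for 46.5% of all genes. The second Itgb3 probe read lower with rhTM by -0.21 from the scanner files and by -0.33 from the table.

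Gp6 encodes GPVI, which signals collagen contact through the Fc receptor γ chain. Its level was -1.89, -2.01 and -1.77 in the saline lungs and -1.01, -2.35 and -2.16 in the rhTM lungs. The saline lungs lay close together, and rhTM 1 stood above and rhTM 2 and 3 below all of them. In the mean Gp6 had a log2 fold change of 0.05 (SE 0.34, 95% interval -0.76 to 0.87), and from the table one of 0.36 (SE 0.31). The second Gp6 probe was highest in rhTM 1, like the first, but lowest in rhTM 3, at -2.74 and -3.68, where the first was lowest in rhTM 2.

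Treml1 encodes TLT-1, a receptor of the α-granule membrane that reaches the surface when platelets are activated. Its level was -1.40, -1.05 and -1.37 with saline and -0.70, -1.47 and -1.96 with rhTM, which placed all saline lungs between rhTM 1 and rhTM 2. In the mean Treml1 had a log2 fold change of -0.11 (SE 0.31, 95% interval -0.85 to 0.64), and -0.06 (SE 0.31) from the table. Its dimmer second probe was highest in rhTM 1 as well, at -3.79, and was not well above background in 1 rhTM lung.

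Of the chemokine genes, Pf4 encodes platelet factor 4, which binds heparin and other glycosaminoglycans. Its level was 3.17, 3.61 and 3.71 in the saline lungs and 4.63, 3.61 and 3.67 in the rhTM lungs. The lung of rhTM 1 was the highest, and rhTM 2 and 3 lay among the saline lungs. The resulting log2 fold change of 0.47 (SE 0.30, 95% interval -0.25 to 1.19, exact permutation p = 0.4) was 0.18 (SE 0.35) from the table. Without rhTM 1 it was 0.15.

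Ppbp encodes the precursor of the neutrophil-attracting chemokine CXCL7. Its level was -0.81, -0.12 and -0.25 with saline and 0.62, -0.43 and -1.07 with rhTM. As for Gp9 and Treml1, rhTM 1 was the highest and rhTM 3 the lowest lung. Its log2 fold change was 0.10 (SE 0.42, 95% interval -0.91 to 1.11), and it changed sign by the table, to -0.16 (SE 0.42).

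**Figure D2:**
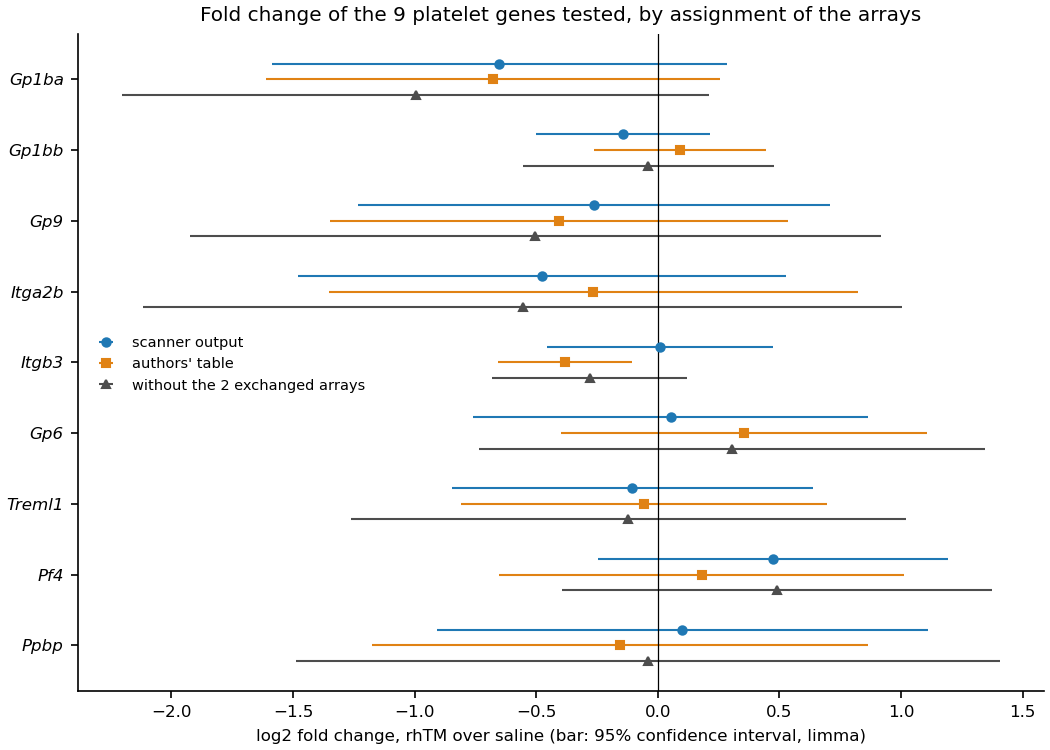
Log2 fold change of rhTM over saline (horizontal axis) for the 9 platelet genes tested, with bars for the 95% confidence interval from limma, by the scanner output (circles), the authors' table (squares) and the 4 arrays outside the exchange (triangles). The values of Gp1ba rest on rhTM spots of which 1 of 3, and none of the triangle's, was above background. Every interval holds 0 except that of Itgb3 by the table.

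The intervals show what 3 mice a group could tell. That of Gp1bb ran from -0.50 to 0.21. That of Itga2b ran from -1.48 to 0.53, so it held 0 as well as decreases of more than 1 log2 unit.

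The spread itself was wider in the treated group. The SD of the log2 level was larger among rhTM lungs than among saline lungs for 7 of the 8 genes above background on every array, with median SDs of 0.68 and 0.31. By the table it was also larger for 7 of the 8, with medians of 0.69 and 0.22. Over all genes above background on every array the share with the larger SD in the rhTM group was 65.9%, or 70.9% by the table. The SD of Gp6 was 0.72 with rhTM and 0.12 with saline, that of Treml1 0.63 and 0.19, and that of Gp9 0.82 and 0.35. The rhTM SD of Gp6 rested largely on rhTM 1, at -1.01 against -2.35 in rhTM 2 and -2.16 in rhTM 3. The count of 7 of the 8 was made after the values were seen, and it was not tested.

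Several of the platelet genes ranked the 6 lungs alike. The highest lung was rhTM 1 for 5 genes (Gp9, Gp6, Treml1, Pf4 and Ppbp) and saline 2 for the other 5. The lowest was rhTM 3 for 6 genes, among them Gp1ba and Gp5, which were not above background there. Averaged over the 8 genes above background on every array, each centred on its mean, the level was 0.57 in rhTM 1, 0.22 in saline 2, 0.03 in saline 3, -0.13 in rhTM 2, -0.18 in saline 1 and -0.51 in rhTM 3. The highest and the lowest lung of this average thus belonged to the same treatment group. Over the 9 tested genes the 2 arrays of slide 2, saline 1 and rhTM 3, were the lowest, at -0.14 and -0.59, and the part of the slide in this order was not tested.

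The likeness of each gene to the mean of the other tested genes was measured over the 6 lungs, as a description. Pearson's r was 0.985 for Treml1 (rho 0.943), 0.971 for Gp9 (rho 1), 0.926 for Ppbp (rho 1) and 0.905 for Itga2b (rho 0.771). The other genes were less alike, with r of 0.624 for Gp6, 0.527 for Gp1bb, 0.498 for Pf4 and 0.254 for Itgb3. No r is given for Gp1ba and Gp5, which were not above background on several arrays, though the mean of the tested genes includes Gp1ba. Since all values share the arrays and their scaling, r also holds what any array gives to all genes. Without rhTM 1 and rhTM 3, the lungs farthest from the median, r over the remaining 4 was 0.972 for Gp9, 0.928 for Treml1, 0.779 for Ppbp and 0.714 for Itga2b. For Gp6 it was 0.00338, so its likeness rested on those lungs.

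**Figure D3:**
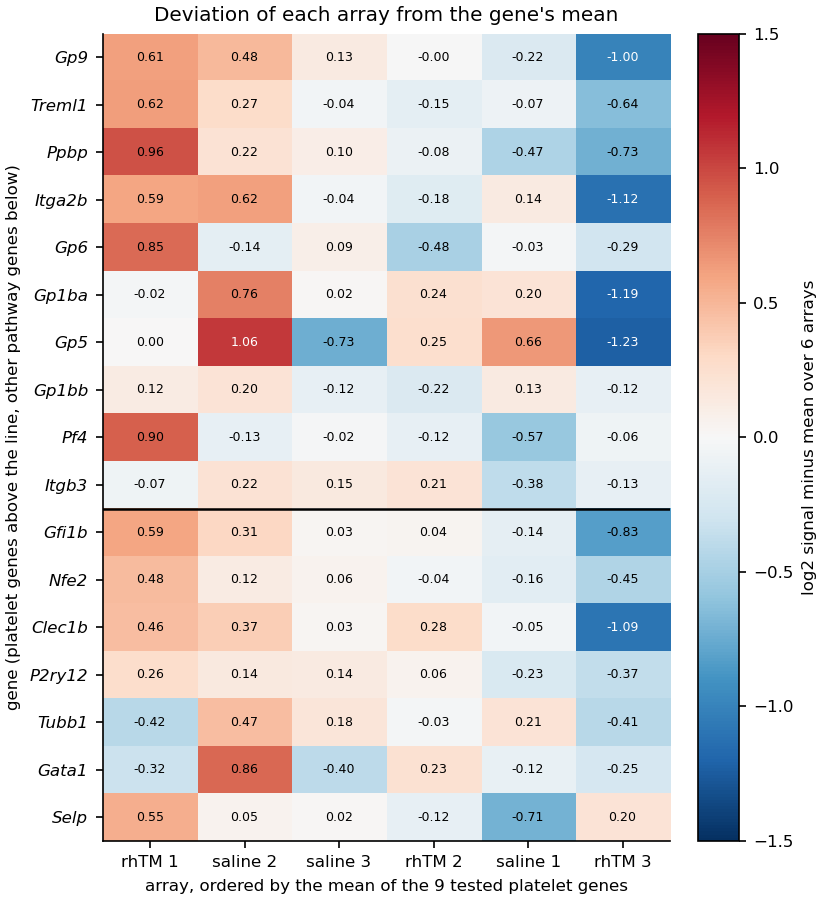
Deviation of each array from the gene's mean over the 6 arrays (colour and printed value, log2 signal) for the 10 platelet genes above the line and 7 other pathway genes below it. Arrays are ordered from left to right by the mean of the 9 tested platelet genes, and Gp9, Treml1, Ppbp, Gfi1b and Nfe2 fall from rhTM 1 on the left to rhTM 3 on the right with few exceptions.

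Among 16353 tested genes outside the 10, those whose levels were most like the mean of the tested platelet genes were Clcn5 (r = 0.997), A530006G24Rik (r = 0.993), Arl6ip6 (r = 0.988), Nrd1 (r = 0.988) and Ncl (r = 0.985) over 6 lungs. None of these 5 is on the platelet pathway lists. Of the pathway genes, Gfi1b ranked 10 with r = 0.984 and Nfe2 ranked 21 with r = 0.979. Both encode transcription factors of the megakaryocyte line, Gfi1b a repressor and Nfe2 the activator of late genes of platelet formation. Without rhTM 1 and rhTM 3 their r was 0.948 and 0.903. In all, 5 of the 49 tested pathway genes (10.2%) had r above 0.9, as had 2.21% of all genes, and the other three were Fcer1g, P2rx1 and P2ry12.

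Genes of platelet function were also read more widely, from 51 genes in 4 lists. The lists were drawn up by function, and the cells of the lung that gave these transcripts were not tested. Likeness to the mean of the tested platelet genes ran from r = 0.984 (Gfi1b) to -0.847 (Sparc). Of the 51 genes, 49 could be tested. Of these, 14 were higher and 35 lower with rhTM, with a median log2 fold change of -0.04, against 0.0026 over all tested genes. The pathway median was further from 0 by the table, at -0.19 (all tested genes -0.025), and without both exchanged arrays, at -0.20 (all tested genes -0.011). With single arrays left out of the scanner output it lay between -0.14 (without saline 1) and -0.00014 (without rhTM 3). After adjustment limma called 0 of the 49, and 2 (Tubb1 and Bin2) had an unadjusted limma p below 0.05, against 1.86% of all genes. Tubb1 was above background in rhTM 2 alone of the treated lungs, so it entered the test through the saline arrays. Of all tested genes 50.7% were higher with rhTM, and of the pathway genes 28.6%. By the table these shares were 46% and 26.5%. By the scanner output the count of 14 rose to 24 of 49 without saline 2, against 53.7% of all tested genes, and to 24 without rhTM 3, against 51.6%. By the table it stayed between 12 and 15 whichever array was left out, and it was 14 without both exchanged arrays. A fit of the table that also held the slide gave 21.

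Among agonist and adhesion receptors, 3 of 9 tested genes were higher and 6 lower, with a median of -0.02. Clec1b encodes CLEC-2, the receptor for podoplanin. Its level was -0.70, -0.28 and -0.62 with saline and -0.19, -0.38 and -1.75 with rhTM, so rhTM 3 was again the lowest, and the log2 fold change was -0.24 (SE 0.40), or -0.45 by the table. P2ry12, the ADP receptor that antiplatelet drugs block, gave -0.03 (SE 0.20), or -0.23 by the table. F2rl2, a thrombin receptor of mouse platelets, gave -0.02 (SE 0.14), which the table put at 0.17 (SE 0.10), whereas F2rl3, the thrombin receptor it works with, was above background in saline 1 only and was not tested. Tbxa2r, the thromboxane receptor, gave -0.24 (SE 0.17), and by the table -0.33 (SE 0.13). By the table F2rl2 and Tbxa2r were 2 of 8 pathway genes without overlap, of which 1 was higher and 7 lower, against 21.7% of all tested genes.

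Among granule cargo and granule formation genes, 7 of 16 were higher and 9 lower, with a median of -0.02. Selp encodes P-selectin, which platelets and endothelium store. Its level was 0.77, 1.53 and 1.50 with saline and 2.03, 1.36 and 1.68 with rhTM, and the log2 fold change was 0.42 (SE 0.26), falling to 0.03 (SE 0.31) by the table. Thbs1, the granule adhesion protein thrombospondin, was also highest in rhTM 1, at 3.37 against 1.93 to 2.52 elsewhere, and gave 0.31 (SE 0.35), or 0.63 (SE 0.28) by the table. F13a1, coagulation factor XIII, gave -0.17 (SE 0.16), or -0.23 by the table. Nbeal2, needed to form α-granules, gave -0.13 (SE 0.17), or -0.27 by the table. Rab27b, needed for dense granules, gave -0.05 (SE 0.14), or -0.13 by the table.

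Among genes of signalling, lipid mediators and the cytoskeleton, 1 of 14 was higher and 13 lower, with a median of -0.16. This list held both genes with an unadjusted p under 0.05. Tubb1 encodes the β1-tubulin of the platelet's marginal band. Its level was -4.76, -4.50 and -4.79 in the saline lungs and -5.39, -5.00 and -5.38 in the rhTM lungs. The probe was above background in all saline lungs but in rhTM 2 alone of the treated lungs, so Tubb1 entered the test through the saline arrays and its difference is not a measured fold. The fit gave -0.57 (SE 0.16, exact permutation p = 0.1, adjusted limma p = 0.9999). By the table Tubb1 overlapped between groups, at -0.41 (SE 0.22). Bin2, chosen after its values were seen, gave -0.41 (SE 0.15), and by the table it overlapped, at -0.21. Fermt3, the kindlin that activates αIIbβ3, gave -0.29 (SE 0.19), or -0.24 by the table.

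Among megakaryocyte growth and transcription factor genes, 3 of 10 were higher and 7 lower, with a median of -0.06. Gata1, which directs megakaryocyte maturation, was highest in saline 2, at -2.90 against -4.16 to -3.53 elsewhere, and gave -0.23 (SE 0.34), or -0.46 by the table. Gfi1b gave -0.13 (SE 0.35) and Nfe2 -0.01 (SE 0.24), with -0.25 and -0.09 by the table. Groups did not overlap for 4 of the 49 pathway genes, against 5.52% of all tested genes. These were Tubb1 and Bin2 with lower values in the rhTM lungs, and Runx1 and Tal1, named after their values were seen, at 0.19 and 0.13. For Tubb1 only rhTM 2 of the treated lungs was above background, so its groups are not compared on measured levels throughout. By the table Runx1 and Tal1 overlapped, at 0.043 and 0.0057.

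**Figure D4:**
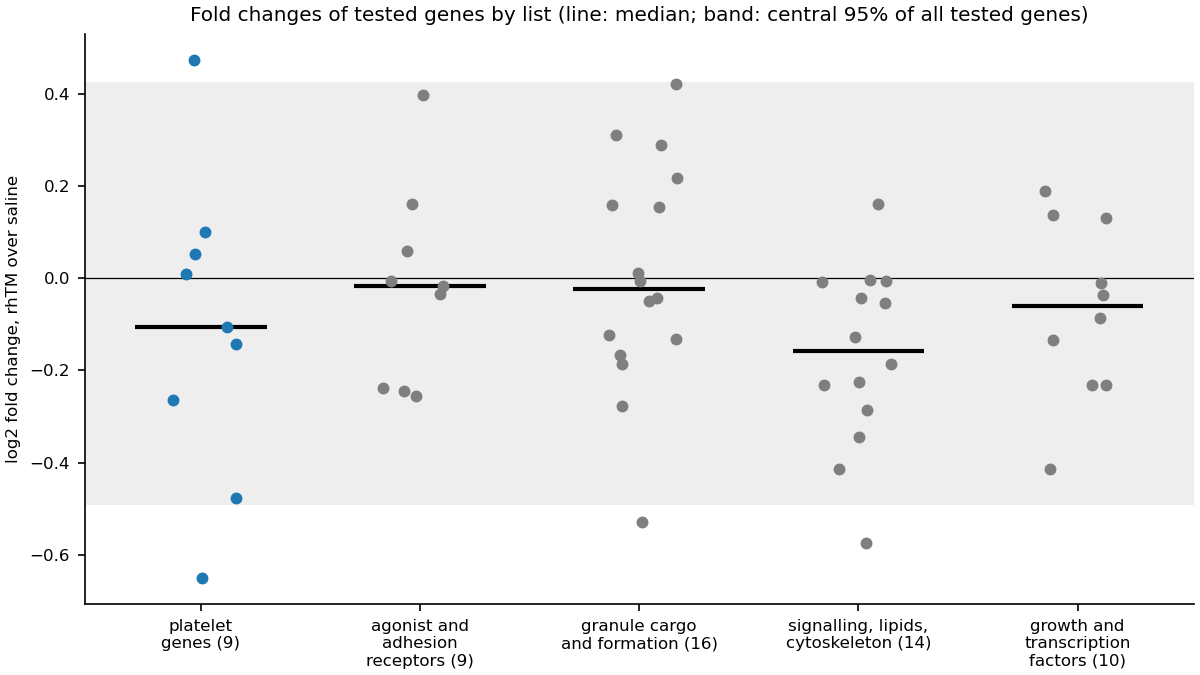
Log2 fold change of rhTM over saline (vertical axis) of each tested gene of the platelet set and of the 4 pathway lists, with the number of genes in parentheses. Thick lines are medians and the grey band holds the central 95% of all tested genes. The medians lie between -0.16 and -0.02, where Gp1ba and Tubb1 were above background in 1 of 3 rhTM lungs each, and Gp1ba, Pf4, Tubb1 and the growth factor gene Pdgfb lie outside the band.

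Markers of other cells were read beside the platelet genes. The erythroid list had 6 of 8 genes matched, and its mean centred level was 0.66 in rhTM 1 and -0.31 to 0.03 in the other lungs, so the lung with the highest platelet average was also the highest in erythroid transcripts. Hbb-bt was 8.02 in rhTM 1 and 6.62 to 7.18 elsewhere, and Slc4a1, the anion exchanger of the red cell membrane, -2.04 against -3.29 to -2.67. Hba-a1 did not stand out in rhTM 1, at 9.24 against 8.87 to 9.34. The neutrophil list, 7 of 8 genes matched, was also highest in rhTM 1, at 0.30 against -0.11 to 0.01. In saline 2, the other lung with a high platelet average, the erythroid list was at -0.12 and the neutrophil list at -0.10. The endothelial list was at -0.20 in rhTM 1 and -0.10 in rhTM 3, and at 0.17 in saline 2. The part of these cells in the platelet values was not tested.

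**Figure D5:**
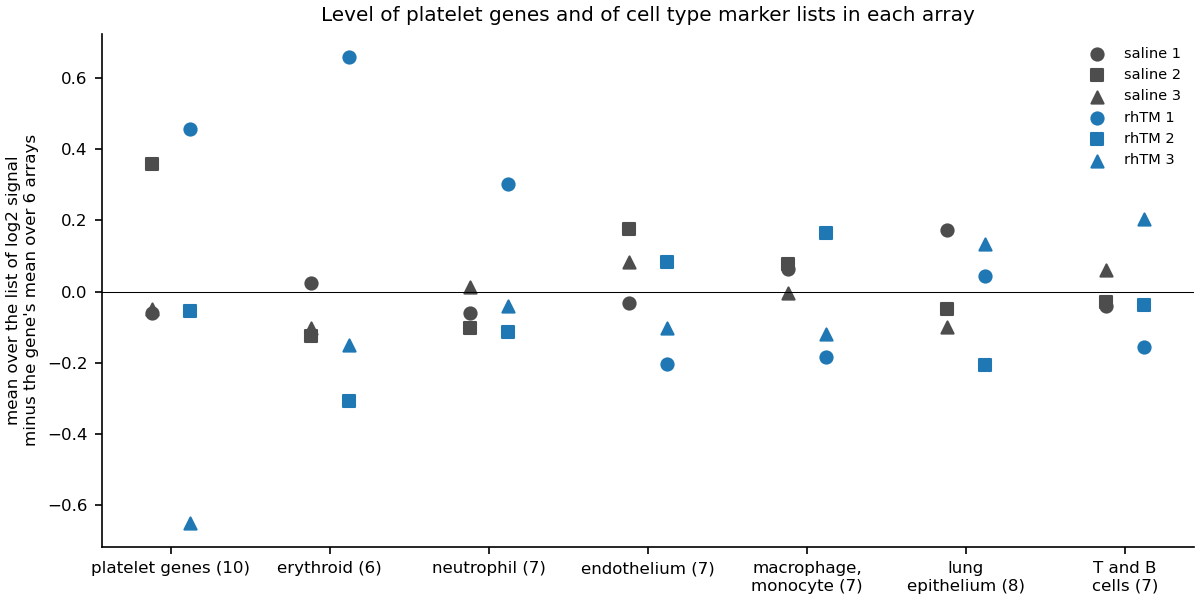
Mean level of the 10 platelet genes and of 6 marker lists (vertical axis, log2 signal centred on the mean of each gene over 6 arrays) in the 3 saline and 3 rhTM lungs, with the number of genes measured in parentheses. The platelet genes, with 2 (Gp1ba and Gp5) not above background in rhTM 1 and rhTM 3, span -0.65 to 0.46, rhTM 1 is highest for platelet, erythroid and neutrophil genes, and rhTM 3 is the lowest lung for the platelet genes but for none of the marker lists.

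Differences within slides rest on 2 lungs a group on slide 1 and on 1 a group on slide 2. Over the 8 genes above background on every array, the log2 differences, rhTM minus saline, on slide 1 ran from -0.11 (Itgb3) to 0.46 (Pf4), and on slide 2 from -1.26 (Itga2b) to 0.51 (Pf4). With the slide as a block 0 of the 9 genes were called, and the lowest adjusted limma p among them was 0.920.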

How the data were processed

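Lung RNA of each of the 6 mice was hybridised to its own 1-colour Agilent SurePrint G3 Mouse array. The authors deposited the scanner output, a processed intensity on a linear scale that Feature Extraction corrected for background within the array. The file headers name version 10.7.3.1 of that software and the submitters' processing notes 9.1. The authors also deposited a table of the same intensity values. For RNA extraction the methods name a simplyRNA kit and the labels an RNeasy kit, and for the control injection PBS stands in the general methods and saline in the array methods and labels.

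Spots of a probe were averaged after control spots had been taken out, and 398 of 56605 probes were dropped because an array flagged each of their spots as an outlier. Accessions matched to a RefSeq table of GRCm38.p6 named 32994 probes, for 22911 genes, and coordinates are those of that table. The log2 signal was scaled by subtracting the 75th percentile of the array. A gene was tested when its brightest probe passed the scanner's test of being well above background throughout 1 group or both. The test was limma 3.58.1 in R 4.3.3 (eBayes after lmFit), with p-values adjusted by Benjamini-Hochberg over 16362 genes and called under 0.05, beside exact permutation tests. The code was tested on simulated data. A limit for a probe not above background used, on each array of that group, the higher of its own signal and the lowest signal among probes well above background. Named genes are the 10 platelet genes, 16 of the best known pathway genes (1 of which is not reported here) and the 5 genes most like the platelet genes, and any other was named after its values were seen. The genes and lists were chosen with earlier results of these data known.

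Alternatives were normexp background correction (offset 50, on median spot signals, since mean signals were not in the files), quantile normalization, the percentile over probes detected on every array, the authors' table, also with the slide as a block, no exchanged arrays, no filter and a stricter one, slide and replicate blocks, the mean of probes, each array left out, and the methods' t-test. The number of arrays limits the precision.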

Additional observations from a re-analysis of the deposited data

How the results depend on the processing

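None of the 9 tested platelet genes passed adjustment under any alternative. Unadjusted limma p-values under 0.05 were reached by 0 to 3 of them, with 3 from the authors' table without rhTM 1 and 3 from the table with the slide added, where 25.3% and 28.1% of all genes reached them. The closest came from the authors' table in opposite directions, Ppbp lower without rhTM 1 (log2 fold change -0.67, adjusted limma p 0.0611) and Ppbp (0.88, 0.0551), Pf4 (0.99, 0.0610) and Gp6 (1.03, 0.0726) higher in a fit of the authors' table that also held the slide, by which all saline arrays lie on slide 1 and rhTM 1 is the only treated array there. By that fit the median over the 10 genes moved to 0.43, 432 genes and 2 pathway genes (Meis1 and P2ry1) were called, 1 platelet gene did not overlap (Itgb3), and the sign turned for Itgb3 (-0.26), Gp1bb (0.17), Gp9 (0.41), Itga2b (0.46) and Treml1 (0.60). By the table without that block Gp1bb (0.091), Itgb3 (-0.38) and Ppbp (-0.16) turned, and 1 gene did not overlap, against 18.8% of all genes. Without both exchanged arrays Itgb3 (-0.28) and Ppbp (-0.041) turned, and 2 genes, Itgb3 and Gp1ba, did not overlap, against 46.5% of all genes, with Gp1ba not above background in either rhTM lung. Itgb3, at 0.01, also turned with quantile normalization (-0.034), the other percentile (-0.015) and the mean of probes (-0.10), under which 1 gene, Gp1bb, did not overlap, against 6.08% of all genes. Its value there, -1.16, averages in a probe not above background in any rhTM lung and is no measured fold. Within slide 1 Itgb3 (-0.11) and Treml1 (0.12) turned, within slide 2 Gp6 (-0.26) and Ppbp (-0.26), and the Gp5 signals differed by -1.88 there, which is no measured fold because rhTM 3 was not above background. Normexp brought Gp1ba from -0.65 to -0.14, Itga2b from -0.48 to -0.16, Gp1bb from -0.14 to -0.074 and Treml1 from -0.11 to -4.1e-05. The cause of these shifts was not tested.

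With each array left out in turn, by scanner output and table together, log2 fold changes ran from -0.95 to -0.22 for Gp1ba, -0.24 to 0.22 for Gp1bb, -0.82 to 0.17 for Gp9, -0.89 to 0.23 for Itga2b, -0.44 to 0.12 for Itgb3, -0.36 to 0.59 for Gp6, -0.44 to 0.25 for Treml1, -0.22 to 0.66 for Pf4 and -0.67 to 0.49 for Ppbp. The median over all 10 genes, Gp5 among them, ran from -0.46 to 0.17. Genes without overlap numbered 0 to 3 of 10, pathway genes called 0 to 2 and all genes called 0 to 566. The 3 genes without overlap came without saline 3, without rhTM 1 and from the table without rhTM 1, where 25%, 10.3% and 38.3% of all genes did not overlap. The counts of 2 and 566 came from the table without rhTM 1, which called Ptgs1 and Thpo.

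Same-numbered samples did not all deviate together (correlations -0.30, 0.44 and -0.45), and no pairing by number was assumed. These values follow the scanner output and rest on few arrays, so they cannot show whether samples were paired. With the replicate block 0 platelet genes were called. Gp1ba was the only tested platelet gene with an unadjusted limma p below 0.05 there, a level that 2.3% of all tested genes reached. Gp1ba was above background in only 1 of the 3 rhTM lungs, so its difference is not a measured fold and nothing is concluded from it. Spots near background, as for Gp1ba, Gp5 and Tubb1, give the least certain values.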
